A study of Mus musculus with 19 samples.

Results

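The genes described here encode 9 precursors of neuropeptides: Sst, Cort, Vip, Cck, Npy, Tac1, Tac2, Crh and Pdyn. They were chosen by name, as peptides known from cortical interneurons and their relatives. The rule of choice used no measured value, but earlier results of these data were known when it was made. All 9 were found among the 24130 Ensembl genes listed in at least 1 of 7 libraries, and all 9 passed the limit on low values, a mean of at least 0.1 FPKM, which left 17844 genes. FPKM are fragments scaled to the length of the transcript model and to the mapped fragments of the library. Levels of different genes thus share a scale, but they depend on the gene model, and those of different libraries depend on the scaling.

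The libraries were made from polyadenylated RNA of the primary somatosensory cortex (S1) of male C57BL/6 mice (C57BL/6J in the methods of the study) aged 56 days. Segments were cut by scalpel from the pia towards the white matter, and they hold mostly layers 1 to 3 (A), layer 4 (B), upper layer 5 (C), lower layer 5 (D), layer 6 (E) and layer 6b (F). Libraries A, C, D, E and F each pooled tissue of the same 8 mice, per the methods of the study. B1 and B2 each pooled the 4 littermates of one litter among these mice and are the only replicates. No mouse was treated, and 12 samples from dorsal and from lateral cortex were not analysed here.

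Neuropeptides are cut from larger precursors in the secretory pathway, stored in dense-core vesicles and released to act on G protein-coupled receptors. In neocortex most of them serve as names for classes of GABAergic interneurons: somatostatin cells reach the distal dendrites of pyramidal cells, VIP cells contact mainly other interneurons, and NPY is found in neurogliaform cells and in a part of the somatostatin cells. Cck and Pdyn are also transcribed in excitatory neurons, so that their level in tissue does not count interneurons alone.

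Of these genes, 2 pairs encode related peptides, and the related stretches are shown because the pairs differ in their laminar profiles. Sst and Cort encode somatostatin and cortistatin, which share most of their receptor-binding core. Of 12 codons compared there, 11 encode the same residue and 30 of 36 bases are identical. The Sst stretch is codons 105 to 116 of ENSMUST00000004480 (GRCm38, chr16:23889732-23889767, minus strand), and the Cort stretch is codons 97 to 108 of ENSMUST00000030815 (chr4:149125270-149125305, minus strand). Capitals mark the bases that both genes share.
Sst: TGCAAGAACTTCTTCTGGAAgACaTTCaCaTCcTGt
Cort: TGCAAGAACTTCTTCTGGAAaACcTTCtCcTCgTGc
Tac1 encodes substance P and neurokinin A, and Tac2 encodes neurokinin B. Their most similar 12 codons lie over the ends of neurokinin A and neurokinin B, where 9 residues and 25 of 36 bases are identical. They are codons 99 to 110 of ENSMUST00000185187 in Tac1 (GRCm38, chr6:7559104-7559139, plus strand) and codons 83 to 94 of ENSMUST00000179960 in Tac2 (chr10:127729119-127729154, plus strand).
Tac1: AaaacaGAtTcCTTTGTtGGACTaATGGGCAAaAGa
Tac2: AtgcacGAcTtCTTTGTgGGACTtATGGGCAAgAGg
The longest run of identical bases between transcripts of any of the 36 pairs of these genes was 21 nt, in Sst and Cort, which is shorter than the 50 nt read from an end of each fragment. Sequences are those of GENCODE M21, whereas the positions of genes given below are those of the deposited tables, in mm9.

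The libraries held an estimated 31.5 M (A) to 75.4 M (B2) mapped fragments, and the 95% intervals that accompany the FPKM cover the estimate within a library and no variation between mice. Slc17a7, the vesicular glutamate transporter of cortical excitatory neurons, lay between 435 and 799 FPKM in all libraries. Library A stood apart by 21.8% mitochondrial FPKM, against 5.03% in F and 18.2% in B2, and by the highest level of 8 of 9 meningeal markers, whose sum was 1756 FPKM in A and 78.7 to 273 FPKM elsewhere. Library F had the highest level of 12 of 12 oligodendrocyte markers and of 10 of 15 striatal markers. Scaling by the median of ratios instead moved all genes of A up by 0.24 on the log2 scale and those of F by -0.19.

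Levels of the 9 transcripts spanned more than 2 orders of magnitude. Cck was the most abundant in every library, from 274 FPKM in F to 506 FPKM in A, where it ranked 50 among all genes. Sst and Npy followed in every library, between 108 and 299.6 FPKM, with Npy above Sst in A alone. The other 6 genes lay between 1.03 and 19.7 FPKM, and their order changed from library to library: Crh led them in A, Vip in B1 and B2, Pdyn in C, Cort in D and E, and Tac1 in F. In B1, D, E and F the leading gene overlapped at least 1 other by its interval. This order depended on the gene model. By the de novo loci with the largest shared span, Tac1 led in D (18.4 FPKM) and E (25.7 FPKM), with Cort at 5.18 and 6.48 FPKM. The leading genes of A, B1, B2, C and F stayed the same.

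**Figure D1:**
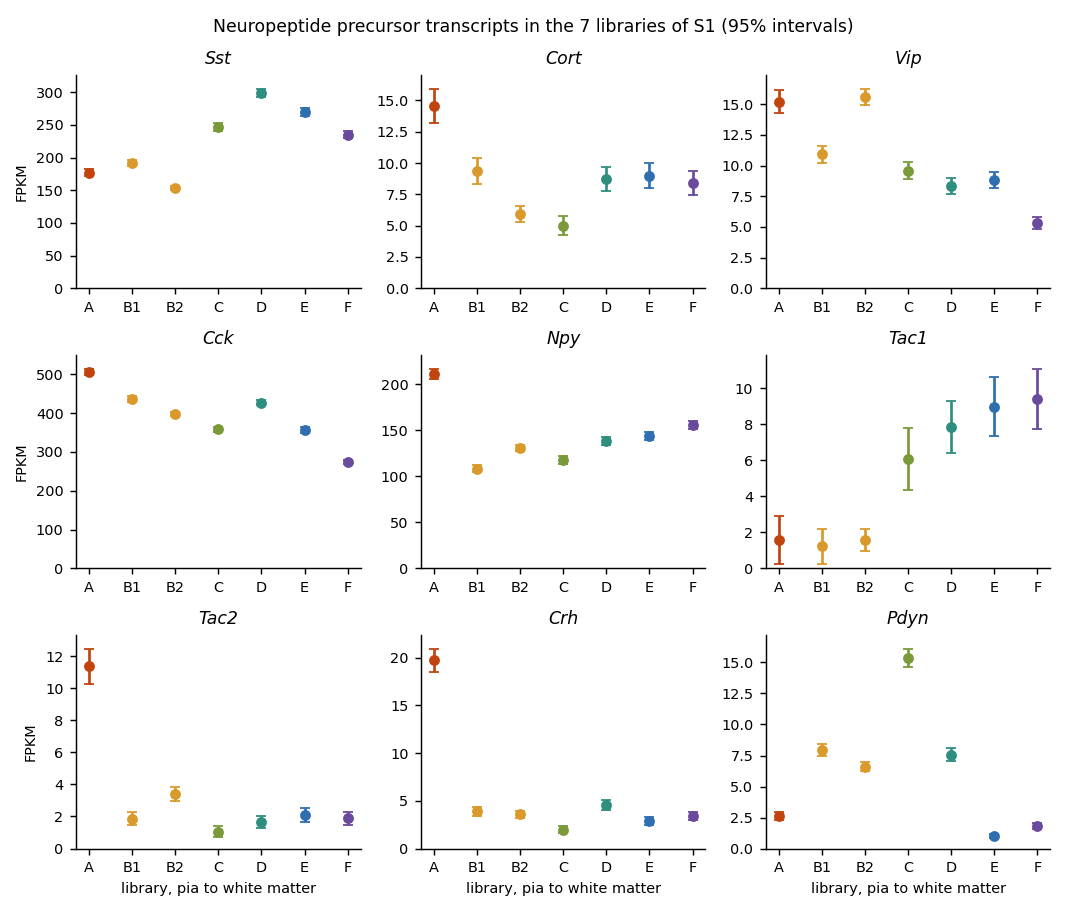
FPKM of each neuropeptide precursor (vertical axis, from 0) in the 7 libraries from pia to white matter, with the deposited 95% interval as bars. Tac2 and Crh stand far above their other libraries in A, Pdyn peaks in C at 15.4 FPKM, and Tac1 steps up between B and C.

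Whether a precursor was patterned across layers was examined in the trend over the 6 segments and in the intervals of neighbouring segments. The trend was fitted with limma to log2(FPKM + 0.1), as a linear and quadratic curve over the position of the segment, or as a line whose slope is the log2 change per segment from A to F. At an adjusted p (Benjamini-Hochberg) of 0.05 the curve was called at 3 of 9 genes, Vip, Tac1 and Tac2, against 34.5% of the 17844 genes tested. The line was called at 2 of 9: Tac1 rose towards layer 6b, as did 10.5% of all genes, and Vip fell, as did 2.42%. The slope lay below 0 in 7 of 9 genes, a count that was not made over all genes tested, whose median slope was 0.08. Of these 7 only Vip was called by the line, and the slopes of Npy and Cort were -0.01 and -0.05. Without A the slopes of Npy and Cort lay above 0, and those of Tac2 and Crh were -0.05 and -0.01. A difference in such a bulk measurement can come from fewer cells of a type or from less RNA per cell, which cannot be told apart. With 1 library per segment outside B, the fit takes its error from the scatter of libraries around the curve. All libraries but B1 and B2 pooled the same 8 mice. Outside that pair the adjusted p thus holds no variation between mice.

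The intervals of A and F lay apart at 9 of 9 genes, against 71.1% of all genes tested. In 7 genes A was the higher, and in Sst and Tac1 it was F, a split that was not counted over all genes. Pdyn was no longer apart with intervals widened 2 times. Neighbouring segments lay apart at 6 of 9 genes for A and B (49.6% of all genes), 6 for B and C (25.1%), 6 for C and D (22.6%), 4 for D and E (30.9%) and 5 for E and F (39.6%). Among genes whose mean reached 1 FPKM, a limit added after the data were seen, the shares ran from 24.5% for C and D to 57.1% for A and B. The replicates B1 and B2 lay apart at 7 of 9 genes, all but Tac1 and Crh, against 48.5% of all genes. Intervals that do not overlap therefore do not set a segment apart from the differences between these replicates. B1 and B2 differed in litter and also in mean insert (239 and 193 nt) and in mitochondrial FPKM (7.76% and 18.2%).

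**Figure D2:**
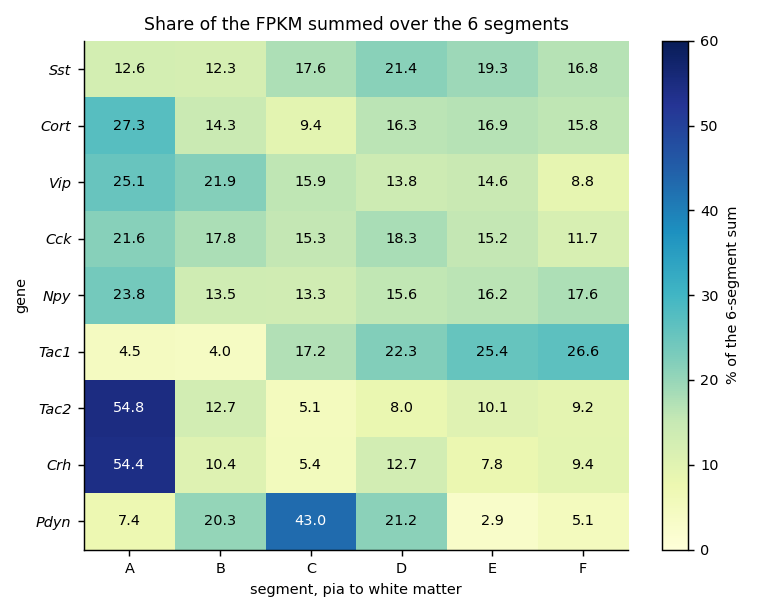
Share of each gene's FPKM (rows) in each of the 6 segments (columns, pia to white matter), in percent of the sum over segments, where B averages B1 and B2. Segment A holds 54.8% of Tac2 and 54.4% of Crh, C holds 43.0% of Pdyn, and no segment holds more than 21.4% of Sst.

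Sst (ENSMUSG00000004366, chr16:23889670-23890930 in mm9) had the smallest fold between segments, with its highest level in lower layer 5. It was measured at 177 FPKM in A, 192 and 154 in B1 and B2, 246 and 299.6 in C and D, and 269.9 and 235 in E and F. All neighbours in this order of levels lay apart by their intervals, and the 4 deep libraries lay above the 3 superficial ones. The difference between the highest and lowest segment was 1.73-fold, and B1 was 1.25 times B2. The slope was 0.14 ± 0.07 (SE) and the trend was not called, with adjusted p = 0.171 for the line and 0.128 for the curve. With libraries scaled by the median of ratios its slope was 0.05 and the intervals of A and F overlapped.

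Cort (ENSMUSG00000028971, chr4:148499143-148500872), the paralogue of Sst, was lower than Sst by a factor of 12.1 to 49.3 and had its highest level at the superficial end of the cortex. Its FPKM was 14.6 in A, 9.36 and 5.94 in B1 and B2, 5.00 and 8.72 in C and D, and 9.0 and 8.41 in E and F. Library A lay above all others, B2 and C overlapped as the lowest, and B1, D, E and F overlapped one another. B1 was 1.57 times B2, the second largest difference between the replicates among these genes. The curve was not called (adjusted p = 0.284), and without A the slope turned from -0.05 to 0.09.

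The peak of Cort in A depended on the gene model. The de novo locus with the largest shared span (95.9%) had 6.51 FPKM in A and 6.15 and 3.47 in B1 and B2. It had 3.17 and 5.18 FPKM in C and D, and 6.48 and 5.17 in E and F. On this estimate A, B1, D, E and F overlapped. A further de novo locus, chr4:148499181-148499579 over the end of Cort, had 12.9 FPKM in A and 2.58 to 5.61 FPKM in the other libraries. The exons of these loci were not compared with those of the Ensembl gene, so how its estimate divides between them was not checked.

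Vip (ENSMUSG00000019772, chr10:4698927-4707323), whose product is the vasoactive intestinal peptide of disinhibitory interneurons, fell with depth. It had 15.2 FPKM in A, 10.9 and 15.6 in B1 and B2, 9.60 and 8.36 in C and D, and 8.82 and 5.32 in E and F. A and B2 overlapped as the highest, F lay below every other library, and C, D and E overlapped between them. The de novo locus of Vip had similar levels, with 15.4 FPKM in A and 5.52 in F. Its intervals were wider, and there F overlapped C, D and E. The slope was -0.27 ± 0.06 per segment, with adjusted p = 0.0299 for the line and 0.0305 for the curve, and A was 2.86 times F. B2 was above B1 by more than the intervals (B1 over B2 was 0.699), and A lay above B1 but overlapped B2. The line was no longer called without A (adjusted p = 0.0554), B2 (0.0667), D (0.0712), E (0.0553) or F (0.116), with slopes of -0.31 to -0.22, and it was called without B1 or C. The curve was lost without A (adjusted p = 0.126), B2 (0.0586), C (0.0623), D (0.0668) or F (0.128). With GC content corrected, the slope of this AT-rich transcript (38.7% GC) was -0.43.

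Calb2, the calretinin that many VIP cells contain, had 5.23 FPKM in A, 4.01 and 3.36 in B1 and B2, 2.54 and 1.62 in C and D, and 1.76 and 2.85 in E and F. Its curve was called (adjusted p = 0.0185) and its line was not (0.121). Htr3a, the serotonin receptor channel of the wider class to which VIP cells belong, was lowest in C at 0.212 FPKM and reached 2.09 in A and 1.71 in F. Its curve was called as well (adjusted p = 0.0410), with a shape unlike that of Vip at the deep end.

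Cck (ENSMUSG00000032532, chr9:121398943-121404780), the cholecystokinin precursor of basket cells and of many pyramidal cells, was high throughout. It was measured at 506 FPKM in A, 436 and 398 in B1 and B2, 359 and 427 in C and D, and 356 and 274 in E and F. A was the highest and F the lowest by their intervals, while B1 overlapped D and C overlapped E. Its neighbours lay apart at 5 of 5 steps, and the level in D was above those of C and E on either side. B1 and B2 differed less than in most of these genes, by 1.10-fold. The slope was -0.13 ± 0.05 and the trend was not called (adjusted p = 0.119 for the line and 0.140 for the curve). With median-of-ratios scaling the curve was called, with adjusted p = 0.0484.
In the de novo tables Cck was broken into pieces, and the piece at its end, chr9:121398910-121399323, had 433 FPKM in A, 138 and 309 in B1 and B2, 244 and 240.4 in C and D, and 252 and 158 in E and F. The replicates of layer 4 differed more on this piece than on the Ensembl gene, with B1 the lowest of all libraries. The larger locus had 195 FPKM in A and 287 in B1, in the opposite order.

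Npy (ENSMUSG00000029819, chr6:49772715-49779502), the neuropeptide Y of neurogliaform and other interneurons, had a U-shaped profile. It had 211 FPKM in A, 108 and 130.5 in B1 and B2, 117 and 139 in C and D, and 144 and 156 in E and F. A lay above all other libraries and F came next, with D and E overlapping and B1 the lowest. A was 1.35 times the next highest segment, and B1 was 0.828 times B2. Neither the curve (adjusted p = 0.229) nor the line (0.938) was called, and the slope turned from -0.01 to 0.10 without A.

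A rare class of cortical neurons with long axons contains Sst, Npy, nitric oxide synthase and the substance P receptor together, and its other markers were set beside these peptides. Chodl, its most selective marker, had 0.0972 FPKM in A, 0.0722 and 0.0550 in B1 and B2, 0.166 and 0.206 in C and D, and 0.284 and 0.689 in E and F. It rose with depth (slope 0.42 ± 0.07, adjusted p = 0.0159), although at levels near the limit for testing. With A, B1 and B2 below 0.1 FPKM, it passed that limit through the deeper libraries, which also carry its slope. Nos1, the synthase, had 2.87 FPKM in A, 1.15 to 1.65 in B1, B2 and C, 2.32 in D, and 4.59 and 6.25 in E and F, with its curve called (adjusted p = 0.0190) and its line not (0.0845). Tacr1, the receptor, was likewise highest in F, at 0.589 FPKM, with its curve called (adjusted p = 0.00857). Sst did not peak with them, and Npy in F was at 0.739 times its level in A.

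Tac1 (ENSMUSG00000061762, chr6:7505071-7512973) rose with depth and had the largest slope of the 9 genes. Its FPKM was 1.59 in A, 1.24 and 1.59 in B1 and B2, 6.08 and 7.87 in C and D, and 8.99 and 9.41 in E and F. The 3 superficial libraries overlapped one another, the 4 deep libraries overlapped one another, and the intervals of the former lay below those of the latter. The one step between neighbours was therefore that from layer 4 to upper layer 5, where C was 4.30 times the mean of B1 and B2. With intervals widened 2 times that step was no longer apart. The slope was 0.64 ± 0.12 (adjusted p = 0.0196) and the curve had adjusted p = 0.0185. The line was lost without A (adjusted p = 0.0507), B2 (0.0526), E (0.0644) or F (0.0534), with slopes of 0.60 to 0.78, and the curve was lost without E (0.0541) or F (0.0506) and with GC content corrected (0.0685). These values rest on an estimated 49.7 fragments in A to 519.6 in F, and the widest interval was 65.0% of the mean.

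The de novo locus of Tac1 repeated the step at higher values, with 5.15 FPKM in A, 2.60 and 3.59 in B1 and B2, 18.4 and 18.4 in C and D, and 25.7 and 29.2 in E and F. It exceeded the Ensembl estimate 2.10-fold to 3.23-fold.
Tac1 was the one gene of the 9 with more than 1 listed transcript. ENSMUST00000090679 (1034 nt) had 0.794 FPKM in A, 0.870 and 0.706 in B1 and B2, 2.92 and 2.22 in C and D, and 2.80 and 3.49 in E and F. ENSMUST00000115546 (989 nt) had 0.801, 0.368 and 0.884 FPKM in A, B1 and B2, then 3.16 and 5.65 in C and D, and 6.19 and 5.92 in E and F. The shorter transcript thus made up 52.0% of the gene in C and 62.9% to 71.8% in D, E and F, where its interval lay above that of the longer one. In the superficial libraries the intervals of both transcripts overlapped. Their lengths differ by 45 nt, and 1 coding exon of Tac1 in GENCODE M21 has that length (GRCm38, chr6:7557216-7557260, plus strand). It is shown in lower case because the deposited tables give the length of a transcript and not its exons, so its absence from the shorter transcript was not checked.
Tac1 exon: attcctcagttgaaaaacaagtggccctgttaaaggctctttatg

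Tac1 and Pdyn are both abundant in striatal projection neurons, and striatal markers moved with the deep end of the series. Drd1, the dopamine receptor of the striatal cells that contain both peptides and also of layer 6 neurons, had 0.711 FPKM in A, 0.874 and 0.905 in B1 and B2, 1.78 and 2.92 in C and D, and 5.87 and 11.8 in E and F. Adora2a and Drd2, of the other striatal class, had 0.318 and 0.198 FPKM in C and 5.44 and 3.64 FPKM in F. Six3 and Isl1 were at most 0.113 FPKM in any library. Over the 15 striatal markers the summed level was 107 FPKM in C, 283 in F and 124 to 192 in the other libraries. The part of striatal cells in the level of Tac1 was not tested.

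Tac2 (ENSMUSG00000025400, chr10:127161534-127168823), the relative of Tac1 that encodes neurokinin B, had its highest level in A, where Tac1 was low. It had 11.4 FPKM in A, 1.85 and 3.41 in B1 and B2, 1.06 and 1.67 in C and D, and 2.10 and 1.90 in E and F. A lay above all others, B2 came next, and B1, D, E and F overlapped. The curve was called (adjusted p = 0.0342) and the line was not (0.223). The replicates of layer 4 differed 0.542-fold, the widest gap among the 9 genes, with B2 above B1. The call rested on A, without which adjusted p was 0.586, and it was also lost without B2 (0.0692), C (0.0709) or D (0.0523).

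Crh (ENSMUSG00000049796, chr3:19593414-19595329), the corticotropin-releasing hormone found in some VIP and somatostatin cells, was concentrated in A in the same way. It was measured at 19.7 FPKM in A, 3.91 and 3.62 in B1 and B2, 1.95 and 4.61 in C and D, and 2.84 and 3.41 in E and F. A was 4.28 times the next segment, D, while B1 and B2 overlapped and differed by 1.08-fold. C lay below every other library. The curve missed the threshold, with adjusted p = 0.0698, and passed it without D (0.0285), while without A it had adjusted p = 0.934 and a slope of -0.01.

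Beside the genes whose highest level was in A stands the meningeal marker sum, likewise highest there. Most of that sum was Ptgds, at 1733 FPKM in A and 269.7 FPKM in F, where Cck was at its lowest, and the other 8 markers summed to 22.9 FPKM in A and 2.62 to 4.54 FPKM elsewhere. The part of the meninges in these levels was not tested. Gad1, Gad2 and Slc32a1, which make or load GABA in every interneuron, had their lowest level in A, at 15.9, 7.15 and 21.1 FPKM. In F they had 32.9, 15.9 and 21.5 FPKM, so Slc32a1 was nearly the same in A and F.

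Pdyn (ENSMUSG00000027400, chr2:129512301-129525569), the precursor of the dynorphins, had its highest level in upper layer 5. It had 2.65 FPKM in A, 7.93 and 6.59 in B1 and B2, 15.4 and 7.58 in C and D, and 1.03 and 1.82 in E and F. C lay above all others at 2.03 times the next segment, B1 and D overlapped, and A, F and E followed, each apart from the next. Of the 9 genes it had the widest span, 14.9-fold between C and E, and with Cck it was apart at 5 of 5 steps between neighbours. B1 was 1.20 times B2. The curve was not called with all libraries (adjusted p = 0.0945) and was called without F (0.0226) or without E (0.0267).

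The ratio of precursors within a library does not depend on how the library was scaled. Sst over Vip was 11.6 in A, 17.6 and 9.85 in B1 and B2, 25.7 and 35.9 in C and D, and 30.6 and 44.2 in E and F. It was 3.80 times higher in F than in A, with intervals apart, while B1 and B2 differed 1.79-fold. Sst over Cort was 12.1 in A, 20.5 and 25.9 in B1 and B2, 49.3 and 34.4 in C and D, and 30.0 and 27.9 in E and F. The ratio in upper layer 5 was 4.06 times that of A, against 1.26-fold between the replicates. These ratios use the Ensembl estimates, and the level of Cort in A depended on the gene model. Cort had 14.6 FPKM in A and 5.00 in C as the Ensembl gene, but 6.51 and 3.17 as the de novo locus.
Sst over Npy was 0.837 in A and 2.16 in D, with 1.78 in B1 and 1.18 in B2. Cck over Vip ran from 25.5 in B2 to 51.6 in F, a range of 2.02-fold, and the replicates alone differed 1.57-fold. Crh over Vip was 1.30 in A and 0.203 to 0.641 in the other libraries. Crh over Tac2 was 1.74 in A and 1.79 in F with overlapping intervals, so the fold between A and F was similar in both genes.
The related precursors Tac1 and Tac2 changed their order of levels between layer 4 and layer 5. Tac1 over Tac2 was 0.140 in A, 0.670 and 0.466 in B1 and B2, 5.72 and 4.72 in C and D, and 4.28 and 4.95 in E and F. The ratio was below 1 in the 3 superficial libraries, though in B1 its interval reached 1.52, and it was 4.28 to 5.72 in the 4 deep ones, with all their intervals above 3. It was 35.3 times higher in F than in A, against a 1.44-fold difference between the replicates.

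**Figure D3:**
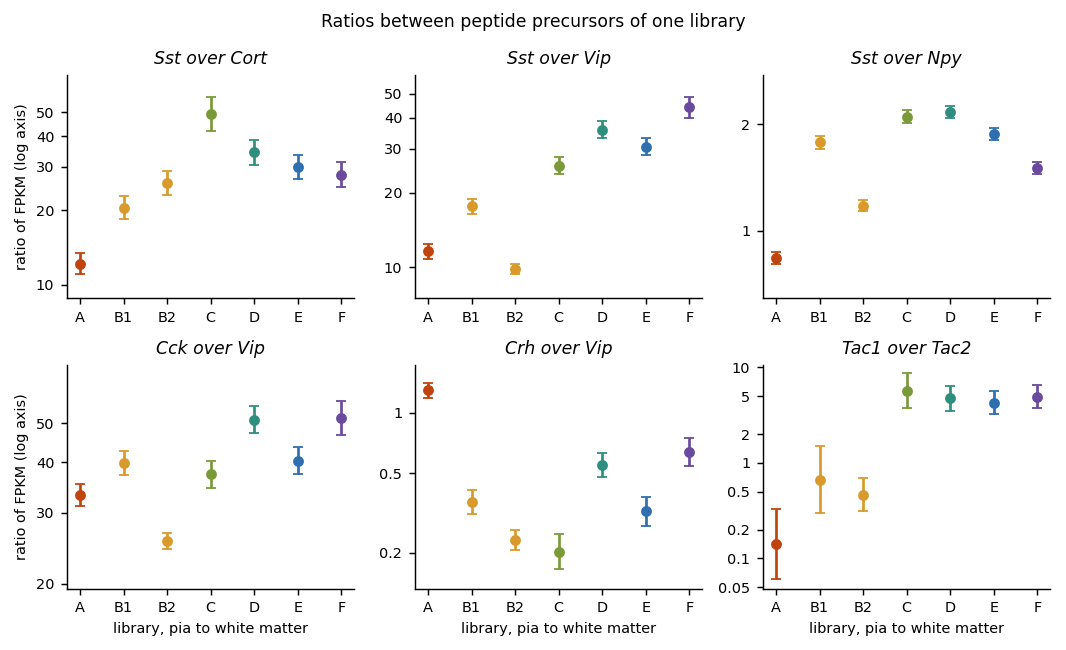
Ratio of the FPKM of precursor pairs (vertical log axes) in the 7 libraries, with 95% intervals built from the deposited intervals of both genes. Tac1 over Tac2 is 0.140 in A and 5.72 in C, while Cck over Vip spans no more than 25.5 to 51.6.

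The precursors were also divided by the geometric mean of Gad1, Gad2 and Slc32a1. This divisor was 28.6 FPKM in B1 and 42.3 FPKM in D but lowest in A, at 13.4 FPKM. A gene of even level therefore has its highest ratio in A. The ratio was highest in A for 7 of 9 precursors, all but Tac1 and Pdyn, a count that was not compared with all genes. For Sst the ratio was 13.2 in A, 6.71 and 5.73 in B1 and B2, 6.76 and 7.08 in C and D, and 8.13 and 10.5 in E and F, so that the depth of its peak depended on what it was divided by. For Vip it was 1.14 in A, 0.382 in B1, 0.582 in B2 and 0.198 to 0.266 in C to F. Tac1 kept its order, from 0.119 in A and 0.0433 in B1 to 0.420 in F, and Pdyn kept its peak in C at 0.421.

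Receptors of these peptides were taken from a list of 21 genes, of which 16 passed the limit on low values. The curve was called at 7 of 16, against 34.5% of all genes tested, and of the lines 3 rose and 1 fell, against 10.5% and 2.42%. The median slope was 0.14, beside 0.08 over all genes. Of the somatostatin receptors, Sstr2 had 0.536 FPKM in A, 1.88 and 2.04 in B1 and B2, 11.3 and 13.4 in C and D, and 14.9 and 17.9 in E and F, the highest slope of the list at 0.95 ± 0.16 (adjusted p = 0.0143). Sstr4 rose from 4.19 FPKM in A to 18.5 in F (slope 0.50 ± 0.09, adjusted p = 0.0180). Sstr1 was highest in D at 16.6 FPKM, as was Sst, with its curve called (adjusted p = 0.0131), and Sstr3 lay between 8.24 and 13.4 FPKM without a call. Both receptors that rose stepped up between B and C, and the sum of all 21 genes was 77.8 FPKM in A and 97.5 to 144.5 FPKM in the other libraries.
Crhr1, the main receptor of the Crh product, fell with depth, from 8.10 FPKM in A, 17.2 in B1 and 12.4 in B2 to 10.6 and 5.55 in C and D, and 3.54 and 2.28 in E and F (slope -0.49 ± 0.11, adjusted p = 0.0315). Its highest level was in layer 4 and not in A, where Crh was highest. Crhbp, which binds and buffers the hormone, was highest in D at 11.8 FPKM and lowest in A at 4.60, with its curve called (adjusted p = 0.0126).
Oprk1, the kappa opioid receptor for dynorphins, rose with depth (slope 0.88 ± 0.15, adjusted p = 0.0140). It had 0.0477 FPKM in A, 0.0779 and 0.0825 in B1 and B2, 0.313 and 1.56 in C and D, and 2.57 and 1.25 in E and F, so it was highest in layer 6, where Pdyn was lowest. Oprk1 passed the limit on low values through the libraries from C to F, which also carry its slope.
Of the remaining receptors, Npy1r lay between 4.87 and 7.68 FPKM, Cckbr between 18.1 and 33.9, Vipr1 between 1.72 and 4.19, and none of these lines or curves was called. Tacr3, the receptor preferred by neurokinin B, peaked in C at 0.521 FPKM, where Tac2 was at its lowest. It had 0.107 FPKM in A, near the limit for testing, and neither its line nor its curve was called.

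**Figure D4:**
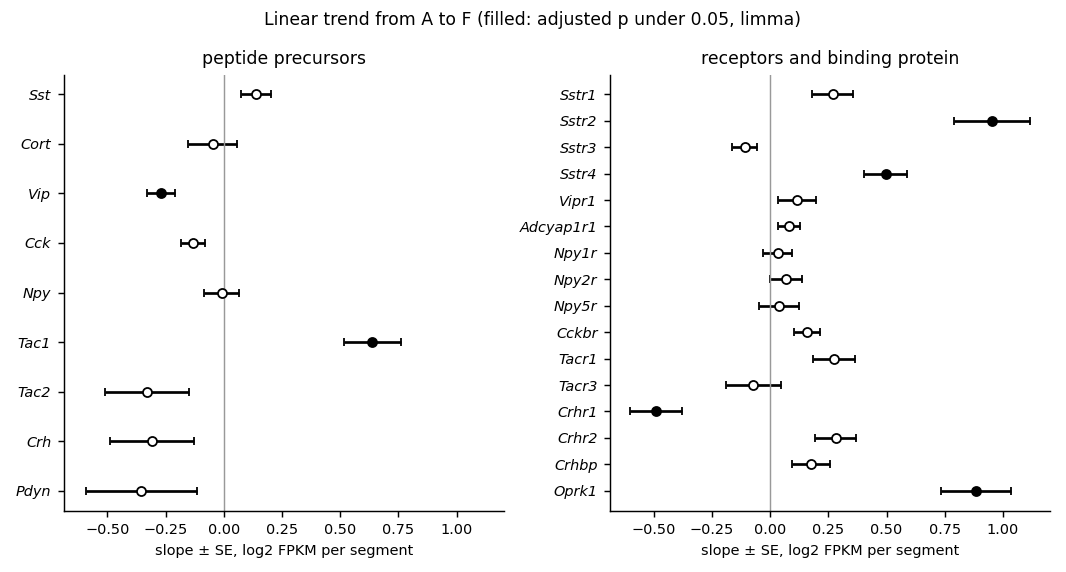
Slope of the line from A to F in log2 FPKM per segment (horizontal axes, with SE bars) for the 9 precursors and for the 16 receptor and binding protein genes tested, where filled points have adjusted p under 0.05 (limma). Tac1, Sstr2, Sstr4 and Oprk1 lie above 0 and Vip and Crhr1 below 0 with filled points.

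Genes that process and store peptides were tested at 15 of 15 listed, and 9 had a called curve, against 34.5% of all genes tested. Of the lines 3 rose and 0 fell, against 10.5% and 2.42% of all genes. The median slope was 0.16, beside 0.08 over all genes. Cpe, the carboxypeptidase that trims precursors after cleavage, rose from 373 FPKM in A to 1067 in F (slope 0.23 ± 0.06, adjusted p = 0.050, just under the threshold). Its relative Cpd rose from 4.11 to 23.3 FPKM (adjusted p = 0.00868). Qpct, which closes the amino end of some peptides, rose from 0.606 FPKM in A to 6.50 in F, at 0.73 ± 0.07 the highest slope of the list (adjusted p = 0.00202). The prohormone convertase Pcsk1 was highest in C, as was Pdyn, at 13.9 FPKM against 2.27 in A, with its curve called (adjusted p = 0.0190). The other convertase, Pcsk2, lay between 88.8 and 145.9 FPKM without a call. Pcsk1n, an inhibitor of the former, had the lowest slope at -0.32 ± 0.10, with 680.0 FPKM in A, 577 in B1 and 271 in B2, and its curve was called (adjusted p = 0.0333) while its line was not (0.0685).

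Among 42 further neuropeptide precursors, 27 passed the limit and 11 had a called curve, against 34.5% of all genes tested, with a median slope of -0.04. Of their lines 2 rose and 1 fell, against 10.5% and 2.42% of all genes. Trh, the thyrotropin-releasing hormone precursor, rose at 0.84 ± 0.20 per segment (adjusted p = 0.0376), the highest slope of this list, with 0.143 to 0.291 FPKM in A to D, 1.44 in E and 6.89 in F. Rln1 rose as well (adjusted p = 0.00476), at no more than 0.470 FPKM. Its levels in A, B1, B2 and C were all below 0.1 FPKM. It passed the limit on low values through D, E and F, which also carry its slope. Its call is therefore no independent support for a rise. Npff fell from 2.23 FPKM in A to 0.329 in F (adjusted p = 0.0455). Cartpt had the lowest slope, -0.71 ± 0.20, with 8.17 and 8.13 FPKM in B1 and B2 and 0.271 in F, and its curve was called (adjusted p = 0.0343) while its line was not (0.0571). Adcyap1, the precursor of the relative of VIP named PACAP, peaked in C at 13.2 FPKM as Pdyn did, with 3.12 FPKM in A and 0.663 in F and a called curve (adjusted p = 0.00415). Penk, another opioid precursor, was lowest in C, where Pdyn was highest, with 36.2 FPKM in A, 9.75 and 10.9 in B1 and B2, 5.15 and 18.0 in C and D, and 24.0 and 35.5 in E and F, and its trend was not called (adjusted p = 0.0636 for the curve).

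Of 30 interneuron markers tested, the curve was called at 20, against 34.5% of all genes tested, and of the lines 2 rose and 2 fell, against 10.5% and 2.42%. Their median slope was 0.06. Lamp5, which marks neurogliaform cells and also superficial pyramidal cells, fell from 258 FPKM in A to 29.8 in F, the lowest slope at -0.64 ± 0.07 (adjusted p = 0.00334), and Maf fell from 12.8 to 3.09 FPKM (adjusted p = 0.00669). Prox1, a factor of VIP and neurogliaform cells, rose from 1.04 FPKM in A to 5.63 in F (slope 0.45 ± 0.10, adjusted p = 0.0292), together with Chodl. Pvalb, which marks fast-spiking basket and chandelier cells, was highest in C at 145.5 FPKM, lowest in F at 16.5 and had a called curve (adjusted p = 0.00843). The slopes of Vip and Prox1 thus had opposite signs, though Prox1 lay between 0.80 and 1.29 FPKM in A to D and had 2.06 in E. Other interneuron markers went either way. The slope was -0.31 for Nr2f2, -0.23 for Calb2, -0.003 for Htr3a, 0.07 for Adarb2 and 0.19 for Sp8, and none of these lines was called.

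Profiles most like those of the precursors were sought among 10144 genes with a mean from 1 FPKM upwards and narrow intervals, by the root mean square difference of centred log2 values over the 7 libraries. The closest named here to Npy was Rtf2 (0.06). Cck was nearest to Khdrbs2 and Zdhhc1 (0.08 each), Vip to Cep85l (0.10) and Usp2 (0.15), and Sst to Trhr2 and Spry2 (0.11 each). Cort was nearest to Cplx2 and Zfp580 (0.20 each). The profiles with larger folds had looser neighbours, Tac2 in Grin2b (0.29), Tac1 in Galnt14 (0.31) and Spon1 (0.33), and Crh in Gm10076 (0.31) and Gm12184 (0.34). Pdyn was the most isolated, with Boc at 0.53 and Tmem200a at 0.59. These distances compare 7 points that share their libraries, and they carry no test.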

How the data were processed

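Polyadenylated RNA of 7 S1 libraries was sequenced from both ends, and the 50 nt reads were mapped to mm9 with TopHat 1.0.13, per the labels. The authors deposited FPKM with 95% bounds, estimated by Cufflinks 0.8.3 for models of Ensembl release 57 and for de novo models. Fraction values that the authors deposited beside each transcript (its share within a locus) were not used. The coverage (signal) that the authors deposited served to estimate fragments per library, an upper value for F, where some reads were longer. Genes absent from a library were set to 0, and 22021 of 24130 identifiers were named through GENCODE M21.

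Trends were fitted with limma 3.58.1 in R 4.3.3 on log2(FPKM + 0.1) over the 7 libraries, two-sided, with Benjamini-Hochberg adjustment over 17844 genes (mean at least 0.1 FPKM), and tested on simulated data. For segment B both libraries had to lie on the same side of the other interval. Ratio intervals combine the deposited intervals on the log scale. Named genes were the 9 precursors, 2 nearest profiles each (some are not reported here), and of each list the extremes of slope, called genes where 5 or fewer were called, and genes whose role bears on a precursor. Members and lists were chosen with earlier results of these data known. Alternatives varied pseudocount, filter, scaling, GC content, limma-trend, interval width and libraries left out.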

Additional observations from a re-analysis of the deposited data

How the results depend on the processing

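Of 151 slopes recomputed under other settings, 140 kept their direction and their side of the threshold, and 135 of 151 curves kept their side. Most of these genes were not called at first, and staying uncalled counts as kept. The called lines were kept in 12 of 17 settings for Vip and 12 of 16 for Tac1. The called curves were kept in 12 of 17 settings for Vip, 13 of 16 for Tac1 and 12 of 16 for Tac2. The slopes that turned were those of Npy (0.10) and Cort (0.091), without library A. All genes called by the line numbered 2310, and 1352 with median-of-ratios scaling, 1285 with scaling that left out mitochondrial genes and 1478 with GC content corrected. The curve was called at 6160 genes, and at 3882 with GC content corrected. Leaving out B1 or B2 gave 940 to 2105 genes by the line and 4605 to 8570 by the curve, with 0 to 2 and 1 to 3 of the 9 precursors. Without A the curve was called at 1294 genes, with 1 precursor by the curve and 0 by the line. Without F the counts were 3790 and 527 genes, with 0 precursors by the line. Leaving out C, D or E was added after the data were seen. Without C the curve was called at 3325 genes and 1 precursor. Without D there were 3613 and 899 genes, with 1 precursor by the line, and without E 3424 and 703 genes, with 0 by the line. Restricting the genes to those with narrow intervals removed Tac1 and Tac2, and left 1 precursor, Vip, by either fit. Of 45 comparisons of a precursor between neighbouring segments 27 lay apart, beside shares of all genes of 22.6% (C and D) to 49.6% (A and B). Under other settings 22 to 31 lay apart. The 31 came without B2, where the shares were 22.6% to 64.8%. With intervals widened 2 times 22 lay apart, beside shares of 10.5% to 32.7%. B1 and B2 then lay apart at 5 of 9 precursors and 28.8% of all genes. This widening ended B to C for Tac1 and Tac2, D to E for Crh and E to F for Npy and Pdyn. On de novo loci the log2 ratio of F to A was -0.45 for Cck, -0.33 for Cort and -2.42 for Crh. On the Ensembl genes it was -0.88 for Cck, -0.79 for Cort and -2.54 for Crh. No paired analysis was possible, because segment B alone was kept apart by litter and the other segments were pooled over the same 8 mice. The cause of these changes was not tested. Depth limits Tac1 and Tac2 most, at an estimated 49.7 and 37.9 fragments in their poorest libraries.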
